A study of Danio rerio with 20 samples.

Results

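The genes that make, take up, move and store cholesterol were followed in zebrafish larvae exposed to citalopram or ifosfamide. A list of 35 genes was taken by symbol: enzymes from acetyl-CoA to cholesterol, both LDL receptor genes, the SREBP regulators and the carriers and storage enzymes of cholesterol. Of the 35, 33 had a row among the 38718 gene models of the table, while mvd and sqleb had none under those symbols. A mean level of at least 1 FPKM (fragments per length of gene, on the deposited scale of library depth) over all libraries was required for testing. This was met by 26 members, among 19723 gene models in all. The members below it were hmgcra, mvk, pmvk, sqlea, lss, tm7sf2 and insig1.

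RNA from larvae was sequenced in 20 libraries in 5 groups of 4: citalopram, a selective serotonin reuptake inhibitor, at 1000 µg/L and at 10 µg/L, ifosfamide, an alkylating anticancer drug, at 100 µg/L and at 1 µg/L, and a group called ERM. That name is not spelled out in the labels, and its treatment entry gives 1 µg/L with no compound beside it. It was used here as the group without either drug, and every comparison with ERM rests on that reading. For each treatment 5 beakers were exposed and 4 were sequenced. Strain, larval age and exposure length are not given in the sources used here. The data are poly(A) RNA of many cell types together, so a lower level can be fewer cells of a type or less RNA per cell, which cannot be told apart. Markers of liver, intestine, neurons, glia, muscle, epidermis, blood and lens were all present in every group's summed levels.

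Cholesterol is built from acetyl-CoA. The mevalonate steps, with HMG-CoA reductase as the rate-limiting enzyme, make isoprenoids, and squalene is then formed, closed into lanosterol and trimmed to cholesterol. In mammals, SCAP carries the SREBP transcription factors out of the endoplasmic reticulum when sterol is scarce, and INSIG proteins hold them back when sterol is plentiful. Active SREBP2 raises the synthesis enzymes and the LDL receptor together, so these genes usually move as a block when cellular sterol changes. LDL cholesterol taken up by the receptor leaves the lysosome through NPC2 and NPC1, and ACAT enzymes, encoded by soat genes, esterify the surplus. Liver and intestine are major sites of this traffic, and larvae also receive cholesterol from the yolk.

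None of the 26 tested members passed an adjusted p of 0.05 in any of 6 comparisons, and the changes of the 15 tested synthesis enzymes took both signs at every dose. At citalopram 1000 µg/L against ERM 0 of 26 members were called, with 0.0304% of all tested gene models called in that comparison. The lowest adjusted p of a member there was 0.751 (limma, Benjamini-Hochberg over all gene models), and 0 members had an unadjusted p under 0.05, against 7.27% of all gene models. At citalopram 10 µg/L against ERM, 0 of 26 members were called and 0.0101% of all gene models were. No member had an unadjusted p under 0.05 there, against 2.42% of all gene models. At ifosfamide 100 µg/L against ERM, 0 of 26 members were called, as were 0% of all gene models, and 0 members had an unadjusted p under 0.05, against 3.27% of all gene models. At ifosfamide 1 µg/L against ERM, 0 of 26 members and 0% of all gene models were called, and 1 member, stard4, had an unadjusted p under 0.05, against 4.8% of all gene models. Between citalopram 1000 µg/L and 10 µg/L, and between ifosfamide 100 µg/L and 1 µg/L, 0 of 26 members and 0% of all gene models were called, and 0 members had an unadjusted p under 0.05, against 3.67% and 0.852% of all gene models. An F-test over the 4 comparisons with ERM called 0 of 26 members and 0% of all gene models, and 1 member, stard4, had an unadjusted p under 0.05, against 5.77% of all gene models. Only fits that weighted libraries by their quality called members: at citalopram 1000 µg/L against ERM 6 of 26, beside 19.7% of all gene models, with weights whose estimation did not converge, and 0 of 26, beside 0.847%, with weights estimated gene by gene. In the F-test the same weights called 11 of 26 members beside 46.4% of all gene models, and 1 of 26 beside 10.9%. Between the citalopram doses the first weights called 1 member, ldlra, beside 5.12% of all gene models.

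The members' values lay on both sides of 0. At citalopram 1000 µg/L 12 members were above and 14 below their ERM mean, with a median log2 change of -0.02, against 0.00027 over all gene models. At citalopram 10 µg/L the members split 13 to 13 with a median of 0.00012, against -0.0016 over all gene models. At ifosfamide 100 µg/L 12 were above and 14 below, with a median of -0.0089 beside -0.0090 over all gene models. At ifosfamide 1 µg/L 16 were above and 10 below, and the median was 0.08, against -0.0069 over all gene models. These 4 comparisons share the ERM libraries, so their values are not independent of each other. All changes are differences of mean log2(FPKM + 1), a scale on which low genes show smaller changes than their true fold.

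The width of the intervals says how much the fit could have shown, with a spread per gene that all groups share. Group spreads differed from it. At citalopram 1000 µg/L the SD was 6.34 FPKM for idi1 and 3.43 for cyp51, against 1.03 and 0.912 in ERM. For hmgcs1 it was 0.262 FPKM against 0.653 in ERM. Where a group spread more than the rest, its intervals are narrower than its own libraries would give. With this shared spread, the 95% interval of the change lay within 2-fold either way for all 15 tested synthesis enzymes in each of the 6 comparisons. The scale narrows the intervals of low genes. With a pseudocount of 0.1 the enzymes within 2-fold numbered 12 at citalopram 1000 µg/L, 13 at citalopram 10 µg/L, 14 at the higher ifosfamide dose and 11 at the lower, each against ERM. Changes smaller than these intervals could not be resolved with 4 libraries per group.

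**Figure D1:**
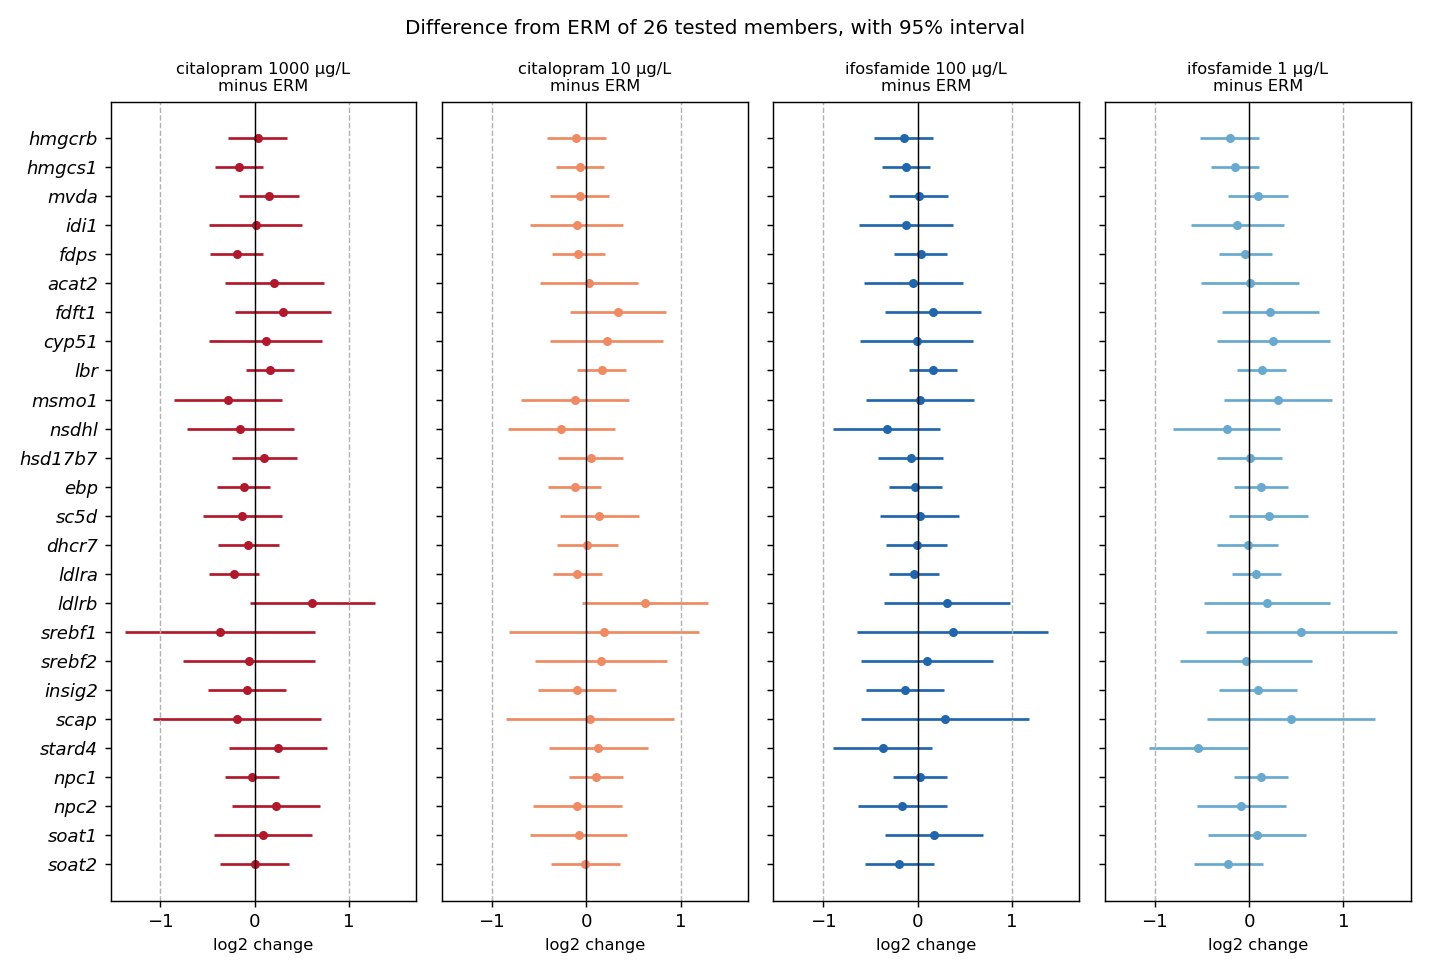
Difference from ERM of the 26 tested members at each drug dose, as log2 change of FPKM + 1 on the horizontal axis, with members grouped by step from the mevalonate enzymes at the top to the storage enzymes at the bottom. Points are estimates, bars are 95% intervals from limma with a spread shared by all groups, and dashed lines mark 2-fold. The bars of all but stard4 at ifosfamide 1 µg/L cross 0.

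HMG-CoA synthase and HMG-CoA reductase open the committed part of the pathway. Cytosolic HMG-CoA synthase, hmgcs1 (ENSDARG00000103025, GRCz11 chromosome 10, 6010570 to 6034397), had 3.82, 3.59, 3.31 and 3.88 FPKM at citalopram 1000 µg/L, against 3.97, 4.49, 3.51 and 5.03 FPKM in ERM. It had 3.84, 4.16, 4.08 and 3.81 FPKM at citalopram 10 µg/L, 3.58, 3.91, 3.80 and 3.88 FPKM at ifosfamide 100 µg/L, and 2.94, 4.46, 4.04 and 3.54 FPKM at ifosfamide 1 µg/L. Every drug group overlapped ERM. Its log2 changes from ERM were -0.17 and -0.07 at citalopram 1000 and 10 µg/L and -0.12 and -0.15 at ifosfamide 100 and 1 µg/L, each with a standard error of 0.12.

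HMG-CoA reductase has a pair of genes in zebrafish, and they differed in level. The copy hmgcrb averaged 10.2 ± 1.83 FPKM at citalopram 1000 µg/L, 9.18 ± 1.07 at citalopram 10 µg/L, 8.89 ± 1.32 FPKM at ifosfamide 100 µg/L, 8.45 ± 0.677 at ifosfamide 1 µg/L and 9.99 ± 1.68 in ERM (SD, n = 4 each). The copy hmgcra (ENSDARG00000052734, chromosome 5, 50972485 to 50992775) had 0.714, 0.318, 0.533 and 0.317 FPKM at citalopram 1000 µg/L, 0.328, 0.458, 0.791 and 0.328 at citalopram 10 µg/L, 0.916, 1.41, 0.180 and 0.101 at ifosfamide 100 µg/L, 0.229, 0.867, 1.06 and 0.390 at ifosfamide 1 µg/L, and 0.699, 0.756, 0.515 and 1.94 in ERM. In each library hmgcrb was the higher copy, and FPKM is per gene length, so the levels can be set side by side. The hmgcra values rest on 6 to 103 reads per library, and its mean of 0.643 FPKM was below the level for testing.

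Among the later mevalonate enzymes, farnesyl diphosphate synthase and isopentenyl diphosphate isomerase were read in every library. The synthase, fdps, had 2.76, 1.98, 3.59 and 2.43 FPKM at citalopram 1000 µg/L, 3.13, 3.04, 2.95 and 2.61 at citalopram 10 µg/L, 3.46, 2.99, 3.34 and 3.25 at ifosfamide 100 µg/L, 3.46, 2.51, 3.32 and 2.99 at ifosfamide 1 µg/L, and 2.62, 3.05, 3.64 and 3.42 in ERM. The isomerase, idi1, had 8.54, 6.65, 20.3 and 7.85 FPKM at citalopram 1000 µg/L, 9.66, 8.48, 6.96 and 11.6 at citalopram 10 µg/L, 7.79, 10.7, 8.95 and 8.29 at ifosfamide 100 µg/L, 10.6, 6.97, 8.48 and 9.89 at ifosfamide 1 µg/L, and 9.33, 9.27, 11.3 and 9.24 in ERM. A single library, C of citalopram 1000 µg/L, was far above the rest for idi1. The other 15 drug libraries had 6.65 to 11.6 FPKM, against 9.24 to 11.3 FPKM in ERM. Apart from C, which was set aside after its value was seen, its group had 6.65 to 8.54 FPKM, below every ERM library. The share of all gene models that lay below ERM in this way is not given here. With C included the log2 change of idi1 from ERM was 0.0086 (standard error 0.24). The other drug groups each overlapped ERM. Cytosolic acetyl-CoA acetyltransferase, acat2, which makes acetoacetyl-CoA, averaged 5.13 to 6.87 FPKM across groups, and mevalonate diphosphate decarboxylase, mvda, averaged 1.04 to 1.41 FPKM. The kinases were low, with group means of 0.478 to 0.919 FPKM for mvk and 0.0579 to 0.138 FPKM for pmvk.

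Squalene epoxidase and lanosterol synthase were sparsely read. Squalene epoxidase, the other control point of sterol synthesis in mammals, was represented by sqlea, with 0.311, 0.569, 0 and 0.480 FPKM at citalopram 1000 µg/L and 0.450, 0.942, 0.504 and 0.750 FPKM at citalopram 10 µg/L. It had 0.538, 0.277, 0.443 and 0.209 FPKM at ifosfamide 100 µg/L, 0.834, 0.400, 0.452 and 0.688 FPKM at ifosfamide 1 µg/L, and 0.254, 0.407, 0.205 and 0.387 FPKM in ERM. All 4 libraries of citalopram 10 µg/L were above the highest ERM library, and the counts behind them were 12, 23, 13 and 20 reads, against 6, 11, 6 and 10 reads in ERM. Among the tested gene models, which do not include sqlea, 1.38% lay wholly above ERM in this comparison. The gene was below the level for testing, and in the fit with no filter on low values no member was called.

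Lanosterol synthase, lss, which closes squalene epoxide into the sterol ring, had 0.323, 0.673, 0.179 and 0.280 FPKM at citalopram 1000 µg/L, 0.490, 0.334, 0.221 and 0.275 at citalopram 10 µg/L, 0.0314, 0.550, 0.301 and 0.340 at ifosfamide 100 µg/L, 0.532, 0.652, 0.338 and 0.281 at ifosfamide 1 µg/L, and 0.276, 0.302, 0.279 and 0.190 in ERM, on 1 to 29 reads per library. Its model overlaps that of mcm3ap on the same strand, so reads there may not be told apart. Squalene synthase, fdft1, averaged 3.44 ± 1.85 FPKM at citalopram 1000 µg/L, 3.24 ± 0.334 at citalopram 10 µg/L, 2.80 ± 0.696 FPKM at ifosfamide 100 µg/L, 2.999 ± 0.802 at ifosfamide 1 µg/L and 2.38 ± 0.442 in ERM (SD, n = 4 each). The drug groups' means were all above ERM for fdft1, with log2 changes of 0.16 to 0.33 and a standard error of 0.24, and none passed the threshold.

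Lanosterol demethylase, cyp51, had 3.21, 2.89, 10.1 and 3.59 FPKM at citalopram 1000 µg/L, 5.14, 3.93, 3.59 and 6.95 at citalopram 10 µg/L, 3.07, 5.78, 2.80 and 4.60 at ifosfamide 100 µg/L, 5.67, 6.27, 4.71 and 3.45 at ifosfamide 1 µg/L, and 2.90, 5.13, 4.02 and 4.03 in ERM. Library C of citalopram 1000 µg/L again stood apart. The other sterol enzymes had group means of 4.81 to 7.07 FPKM for msmo1, the sterol methyl oxidase, 4.82 to 5.19 FPKM for dhcr7, dehydrocholesterol reductase, and 5.00 to 5.74 FPKM for lbr, the lamin B receptor with sterol reductase activity. The lower ones were nsdhl with 1.91 to 2.63 FPKM, sc5d, lathosterol oxidase, with 1.21 to 1.72 FPKM, hsd17b7 with 1.01 to 1.32 FPKM and ebp, the sterol isomerase, with 0.933 to 1.28 FPKM. The reductase tm7sf2, at a mean of 0.998 FPKM, was just under the level for testing, and ebp, at 1.06 FPKM, was the member just above it. Over the 15 tested synthesis enzymes, log2 changes from ERM ran from -0.28 to 0.30 at citalopram 1000 µg/L, -0.26 to 0.33 at citalopram 10 µg/L, -0.33 to 0.16 at ifosfamide 100 µg/L and -0.24 to 0.30 at ifosfamide 1 µg/L.

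**Figure D2:**
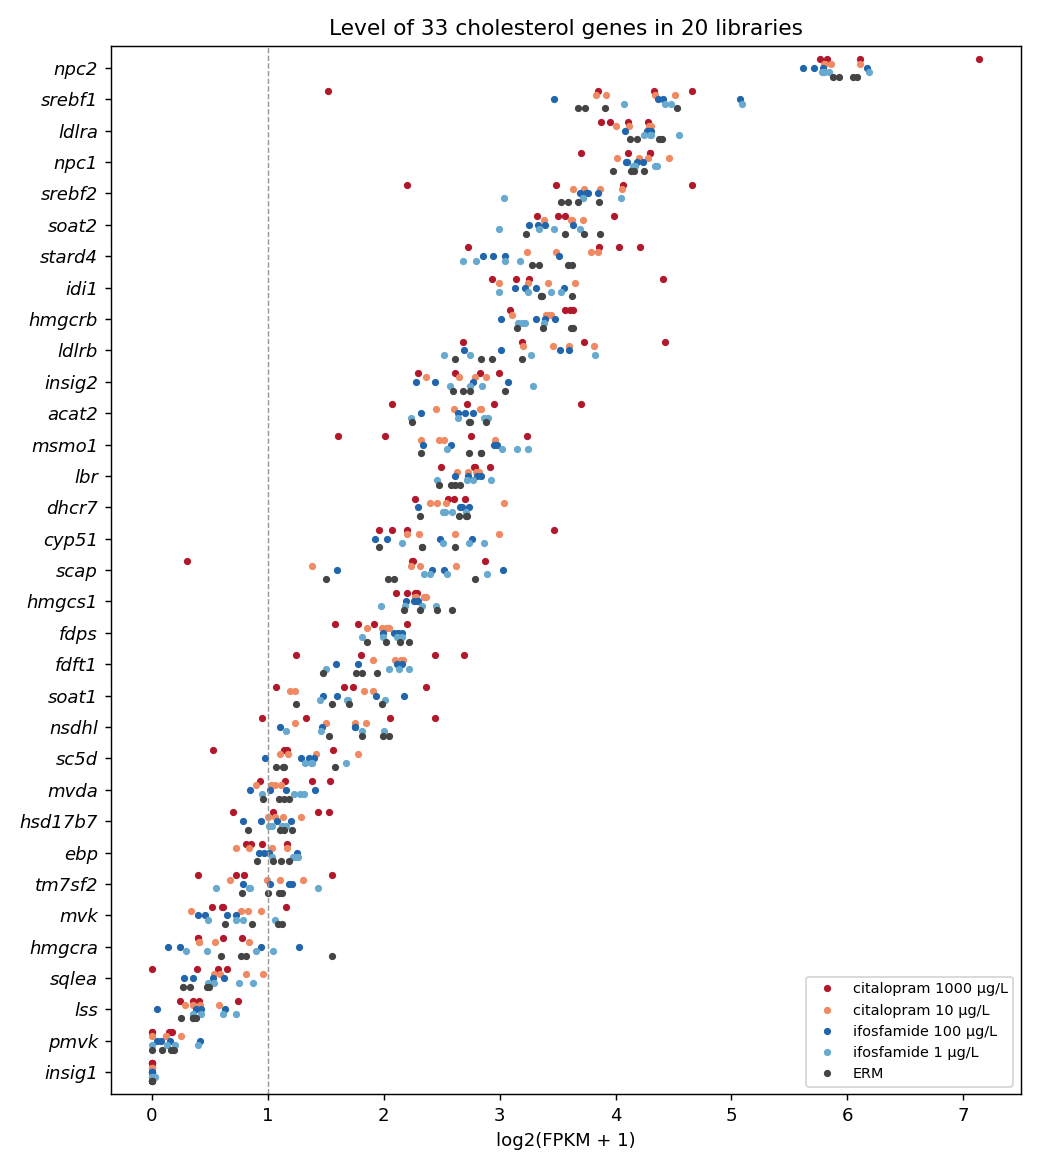
Level of the 33 members with a row, as log2(FPKM + 1) on the horizontal axis, ordered by mean level with the highest at the top. Each point is 1 library, coloured by group, and the dashed line is 1 FPKM. The carrier npc2 lies above all other members in every library, and insig1 lies at 0 in 19 of 20.

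The mean log2 changes of the LDL receptor copies from ERM had opposite signs at both citalopram doses and at ifosfamide 100 µg/L. The higher copy, ldlra (ENSDARG00000029476, chromosome 3, 19299309 to 19323689), had 13.6, 14.4, 16.2 and 18.5 FPKM at citalopram 1000 µg/L, 15.04, 18.8, 18.6 and 16.3 at citalopram 10 µg/L, 18.3, 15.9, 18.5 and 18.8 at ifosfamide 100 µg/L, 18.8, 18.0, 18.7 and 22.4 at ifosfamide 1 µg/L, and 20.2, 17.2, 19.8 and 16.5 in ERM. Of the citalopram 1000 µg/L libraries, 3 lay below all ERM libraries and D lay within their range. The log2 change was -0.22 (standard error 0.13, 95% interval -0.48 to 0.04, adjusted p = 0.788 by limma). At citalopram 10 µg/L it was -0.09, at ifosfamide 100 µg/L -0.04 and at ifosfamide 1 µg/L 0.08.

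The other copy, ldlrb (ENSDARG00000026759, chromosome 6, 102506 to 109626), had 12.2, 20.54, 8.13 and 5.43 FPKM at citalopram 1000 µg/L and 10.0, 13.1, 11.1 and 8.21 FPKM at citalopram 10 µg/L, against 8.17, 5.11, 6.66 and 6.16 FPKM in ERM. It had 5.46, 11.1, 10.5 and 7.07 FPKM at ifosfamide 100 µg/L and 4.73, 13.1, 8.64 and 5.71 FPKM at ifosfamide 1 µg/L. The 4 libraries of citalopram 10 µg/L all lay above ERM, by a margin of 8.21 against 8.17 FPKM at the closest, while the other drug groups overlapped ERM. It was the only member of 26 whose citalopram 10 µg/L libraries all lay above ERM, a pattern met by 1.38% of all gene models in that direction. The log2 change was 0.61 at citalopram 1000 µg/L (standard error 0.32, 95% interval -0.06 to 1.28, adjusted p = 0.751 by limma), with 0.30 without library B and 0.89 without library D, and 0.62 at citalopram 10 µg/L (standard error 0.32, 95% interval -0.04 to 1.29, adjusted p = 1.00). At ifosfamide 100 µg/L it was 0.31 and at ifosfamide 1 µg/L 0.19. With the library weights that did not converge, both copies passed at citalopram 1000 µg/L, ldlra at -0.40 (adjusted p = 0.00136) and ldlrb at 0.78 (adjusted p = 0.00555). Under the other 17 alternatives for that comparison neither did. The gene ldlrb was singled out after its values were seen.

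**Figure D3:**
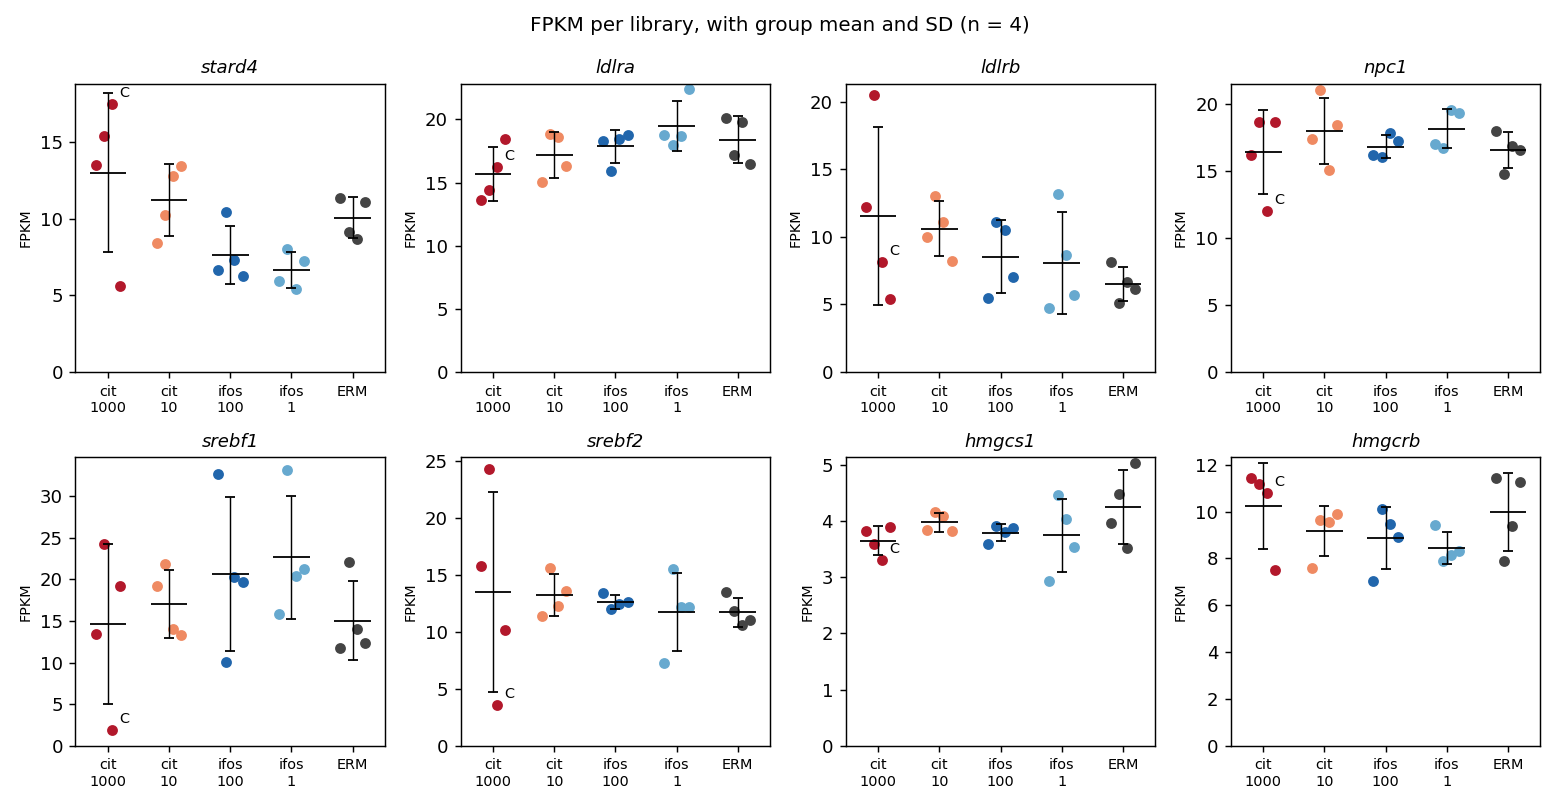
FPKM of 8 members in each library by group (cit, citalopram; ifos, ifosfamide; doses in µg/L), with the group mean as a line and the SD as bars (n = 4). Library C of citalopram 1000 µg/L is marked and has the lowest srebf1 (1.87 FPKM) and srebf2 (3.59 FPKM) of all 20 libraries.

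The SREBP genes spread widely between libraries of a group. The gene of SREBP1, srebf1 (ENSDARG00000067607, chromosome 3, 62064805 to 62087346), had 13.4, 24.2, 1.87 and 19.2 FPKM at citalopram 1000 µg/L, 19.2, 21.8, 14.1 and 13.3 at citalopram 10 µg/L, 32.6, 10.1, 20.3 and 19.6 at ifosfamide 100 µg/L, 15.8, 33.1, 20.46 and 21.3 at ifosfamide 1 µg/L, and 11.8, 22.1, 13.98 and 12.3 in ERM. The gene of SREBP2, srebf2 (ENSDARG00000063438, chromosome 3, 1107102 to 1130892), had 15.8, 24.2, 3.59 and 10.2 FPKM at citalopram 1000 µg/L, 11.4, 15.6, 12.2 and 13.6 at citalopram 10 µg/L, 13.4, 11.9, 12.4 and 12.6 at ifosfamide 100 µg/L, 7.22, 15.5, 12.2 and 12.2 at ifosfamide 1 µg/L, and 13.5, 11.8, 10.6 and 11.01 in ERM. At citalopram 1000 µg/L the log2 change was -0.37 for srebf1 and -0.06 for srebf2, with standard errors of 0.48 and 0.34. Both turned positive without library C, at 0.32 for srebf1 and 0.41 for srebf2. Without library A of ERM srebf2 was also positive, at 0.0037. With all libraries both changes were smaller than their standard errors. The SREBP escort gene scap averaged 3.52 ± 2.51 FPKM at citalopram 1000 µg/L, 3.62 ± 1.48 at citalopram 10 µg/L, 4.57 ± 2.11 FPKM at ifosfamide 100 µg/L, 4.91 ± 1.06 at ifosfamide 1 µg/L and 3.52 ± 1.70 in ERM (SD, n = 4 each).

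The INSIG genes were read very unequally. Across group means insig2 lay between 5.37 and 6.39 FPKM. In contrast, insig1 (ENSDARG00000010658) had 0.0163 FPKM, 1 read, in library B of ifosfamide 1 µg/L and 0 FPKM in the other 19 libraries. At these depths, a count of 0 allows up to 3 reads, which for insig1 is 0.0450 to 0.0874 FPKM depending on the library, counting error only. In mammals INSIG1 is itself a target of SREBP, and at this depth no group difference in it was detectable.

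The sterol carrier gene stard4 (ENSDARG00000102477, chromosome 21, 244503 to 248613), whose protein moves cholesterol between membranes and whose mammalian gene is an SREBP2 target, had the smallest unadjusted p of any member in the 6 comparisons. It had 6.68, 10.4, 7.27 and 6.24 FPKM at ifosfamide 100 µg/L and 5.94, 8.03, 5.41 and 7.24 FPKM at ifosfamide 1 µg/L, against 11.4, 9.14, 8.68 and 11.1 FPKM in ERM. It had 13.5, 15.4, 17.5 and 5.61 FPKM at citalopram 1000 µg/L and 8.41, 10.2, 12.8 and 13.4 FPKM at citalopram 10 µg/L. All 4 libraries of ifosfamide 1 µg/L lay below all ERM libraries, 3 of 4 did so at ifosfamide 100 µg/L, and the citalopram groups overlapped ERM. It was the only member of 26 whose ifosfamide 1 µg/L libraries all lay below ERM, which 4.8% of all gene models also did. At ifosfamide 1 µg/L the log2 change was -0.54 (standard error 0.25, 95% interval -1.06 to -0.016), with an unadjusted p of 0.0441 and an adjusted p of 0.787 by limma. At ifosfamide 100 µg/L it was -0.37 (standard error 0.25, 95% interval -0.89 to 0.15, adjusted p = 0.920), and between the doses, ifosfamide 100 minus 1 µg/L, 0.17. At citalopram 1000 and 10 µg/L it was 0.25 and 0.13. In the F-test over the 4 comparisons with ERM stard4 had an unadjusted p of 0.0239 and an adjusted p of 0.794 by limma. Weights for library quality moved the ifosfamide 1 µg/L change past the threshold. With weights whose estimation did not converge it was -0.67 (adjusted p = 0.0390 by limma), in a fit that called 0.953% of all gene models. With weights estimated gene by gene, chosen after the data were seen, it was -0.72 (adjusted p = 0.0110 by limma), in a fit that called 10.3%. With gene-by-gene weights ifosfamide 100 µg/L also passed, at -0.53 (adjusted p = 0.0497), in a fit that called 4.36% of all gene models. The ifosfamide 1 µg/L change was weaker with a replicate block, at -0.42 (adjusted p = 0.999 by limma). Letter E occurs in ERM alone, so the block takes library E of ERM out of the comparison. Leaving that library out without a block gave -0.49. Scaled to total reads it was -0.38 (adjusted p = 0.716 by limma).

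Summed marker levels of some tissues lay apart between ifosfamide 1 µg/L and ERM, and those of others overlapped. The summed FPKM of 8 liver markers was 747 to 1501 at ifosfamide 1 µg/L and 1390 to 1615 in ERM, and that of the 5 intestine markers with a row, of 6 listed, was 281 to 724 at ifosfamide 1 µg/L and 603 to 715 in ERM. For 6 blood markers the sums were 122 to 220 at ifosfamide 1 µg/L and 230 to 390 in ERM, without overlap. The same held for 6 epidermis markers, at 2382 to 3050 and 3220 to 4084, and 6 muscle markers, at 8188 to 12112 and 12157 to 16800, at ifosfamide 1 µg/L and in ERM. Sums of the liver, intestine, neuron, glia and lens markers overlapped. At ifosfamide 100 µg/L the blood sums, 124 to 216, also lay wholly below ERM, and the sums of every other list overlapped ERM. A mean of at least 1 FPKM was met by 4 of the 6 blood, 4 of the 6 epidermis and 5 of the 6 muscle markers. Of single gene models, 4.8% lay wholly below ERM at ifosfamide 1 µg/L and 2.54% at ifosfamide 100 µg/L. No such share for sums of markers is given here. No listed marker with a row was at 0. The part of these tissues in the stard4 values was not tested.

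The lysosomal carriers were among the highest members. The membrane exporter npc1 had 16.2, 18.6, 12.04 and 18.7 FPKM at citalopram 1000 µg/L, 17.4, 21.1, 15.1 and 18.4 at citalopram 10 µg/L, 16.2, 16.0, 17.8 and 17.2 at ifosfamide 100 µg/L, 17.0, 16.7, 19.5 and 19.3 at ifosfamide 1 µg/L, and 18.0, 14.8, 16.9 and 16.6 in ERM, and all groups overlapped. Its soluble partner npc2 was the highest member, at a mean of 63.2 FPKM over all libraries, and its lowest library, at 48.0 FPKM, exceeded the highest value of any other member, 33.1 FPKM for srebf1. It averaged 79.3 ± 40.9 FPKM at citalopram 1000 µg/L, or 59.1 ± 7.88 (SD, n = 3) without library C, against 62.5 ± 4.27 in ERM (SD, n = 4). After npc2 came srebf1, ldlra and npc1 with means of 18.0, 17.7 and 17.2 FPKM, whose libraries overlapped in every group, then srebf2 with 12.5 and soat2 with 10.5 FPKM. The sterol esterifying enzyme gene soat2 averaged 9.53 to 11.3 FPKM across groups and soat1 1.99 to 2.53 FPKM, with log2 changes from ERM of -0.22 to 0.17 over both genes and all doses.

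Library depth, as reads recovered from the table, ran from 10699832 to 17311011. The FPKM, also those of library C, are on the deposited scale, which does not follow these totals alone. In the citalopram 1000 µg/L group, library C stood apart from the other 3. It detected 25952 gene models, and each of the other 19 libraries detected 28913 to 30110. Of the 26 tested members 20 were outside the range of the other 3 libraries, 10 above and 10 below, and 77.9% of all tested gene models were. In other libraries this count ran from 5 to 21 members. On the log2(FPKM + 1) scale library C differed from the mean of the other 3 by -2.76 for srebf1, -2.16 for scap, -1.87 for srebf2 and -1.08 for fdft1, and by 1.39 for cyp51, 1.30 for idi1, 1.24 for npc2, 1.12 for acat2 and 1.11 for msmo1. Of the 15 tested synthesis enzymes, 8 lay above the other 3 libraries, 4 below and 3 within their range. Relative to the mean of all 20 libraries, its log2 values sloped with gene length by -0.151 per doubling, the steepest of the 20. The part of that in the members was not tested.

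**Figure D4:**
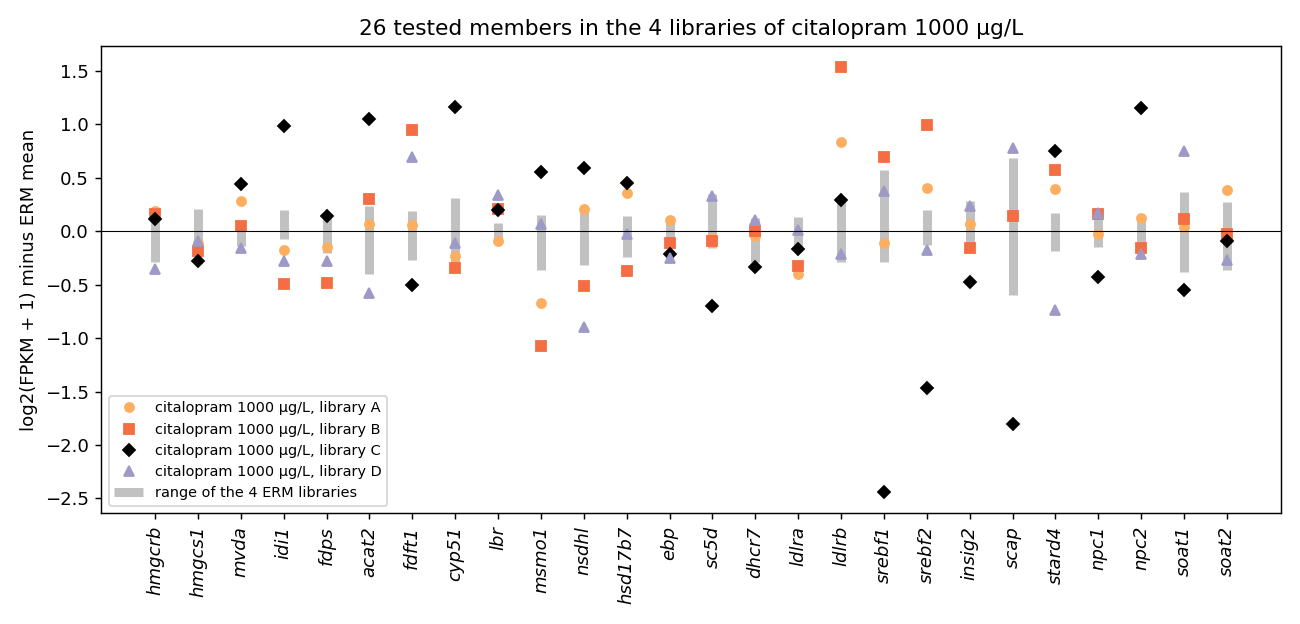
The 26 tested members in the 4 libraries of citalopram 1000 µg/L, as log2(FPKM + 1) minus the ERM mean on the vertical axis, with grey bars for the range of the 4 ERM libraries. Library C (black diamonds) lies farthest from the others for srebf1, scap and srebf2 below and for cyp51, idi1 and npc2 above.

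Within groups the correlations between members took both signs. Over 325 pairs of tested members, the correlation of deviations from the group means over 20 libraries had a median of -0.01, and over the 105 pairs of synthesis enzymes 0.03. Among the enzyme pairs 3 had r over 0.7 and 1 under -0.7, and without library C of citalopram 1000 µg/L 1 and 0 did. Past an adjusted permutation p of 0.05 for Pearson's r were 8 of the 325 pairs, 3 positive and 5 negative, and without library C 3, all negative. Medians and counts over pairs of all gene models are not given here. Whether the members vary together less or more than other genes is therefore not shown. The pair with the largest r in size was srebf1 and npc2, with r = -0.927 and rho = -0.866 (adjusted permutation p = 0.019 and 0.0152), and r = -0.806 without the 2 farthest libraries. Without library C it had r = -0.771 and rho = -0.756 (adjusted permutation p = 0.15 and 0.104). The closest positive pair was srebf1 and scap, with Pearson's r = 0.907 and Spearman's rho = 0.908 over 20 libraries (permutation within groups, p = 0.00017 and 6e-05, adjusted over 325 pairs 0.0146 and 0.00975). It was 0.894 without the 2 libraries farthest from the median of srebf1. Without library C, r was 0.794 and rho 0.763, with adjusted p of 0.0689 and 0.0754 by the same permutation test. The pair is not particular: srebf1 had an r beyond 0.7 in size with 29.3% of all tested gene models, and with 11.6% without library C. The pair sc5d and stard4 was negative with and without library C, at r = -0.843 and -0.822 (adjusted permutation p = 0.0065 and 0.00325) and rho = -0.859 and -0.914 (adjusted permutation p = 0.00325 for both), and r was -0.788 and -0.867 without the 2 farthest libraries. In size, r beyond 0.7 was met with 10.3% of all tested gene models by sc5d and with 10.2% by stard4, and without library C with 2.4% and 8.26%. For fdft1 and npc2 r was -0.898, and -0.847 without library C, the largest in size there. The sc5d values rest on 5 to 40 reads per library. The permutation p came from 100000 resamples, which limits how small they can be. All these points share library depth and composition.

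Other genes of sterol and lipid handling were checked from 3 further lists, and 0 passed an adjusted p of 0.05 in any comparison. Of 20 listed genes of the last sterol steps, the isoprenoid branch and uptake adaptors, 16 were tested. At ifosfamide 100 µg/L 2 of them had an unadjusted p under 0.05, both lower: mylipb, whose mammalian counterpart marks the LDL receptor for breakdown, with a log2 change of -0.45, and the LDL receptor adaptor gene ldlrap1a, with -0.34. At ifosfamide 1 µg/L ldlrap1a alone did, with -0.32. At citalopram 1000 µg/L and 10 µg/L against ERM 0 of the 16 did. Over all gene models the shares, for this list and the next, were 7.27% and 2.42% at citalopram 1000 and 10 µg/L. At ifosfamide 100 and 1 µg/L they were 3.27% and 4.8%. Of 19 listed genes of fatty acid and triglyceride synthesis 18 were tested, and the counts with an unadjusted p under 0.05 against ERM were 1, acacb, at citalopram 1000 µg/L and 1, elovl6, at citalopram 10 µg/L, both lower, with 0 at either ifosfamide dose.

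Of 18 listed genes of sterol efflux and breakdown 14 were tested. With an unadjusted p under 0.05 against ERM there were 2 at citalopram 1000 µg/L (cyp8b1 lower, nr0b2a higher), 1 at citalopram 10 µg/L (abcg5, higher), 3 at ifosfamide 100 µg/L (cyp7a1, cyp8b1 and nr1h4, all lower) and 2 at ifosfamide 1 µg/L (cyp8b1 and nr1h4, both lower). The shares over all gene models were 7.27%, 2.42%, 3.27% and 4.8% in that order of groups. The sterol hydroxylase gene cyp8b1 averaged 6.55 ± 1.104 FPKM at citalopram 1000 µg/L, 8.76 ± 1.89 at citalopram 10 µg/L, 5.86 ± 2.04 FPKM at ifosfamide 100 µg/L, 7.06 ± 1.04 at ifosfamide 1 µg/L and 10.6 ± 0.903 in ERM (SD, n = 4 each). Its log2 changes from ERM were -0.63, -0.27, -0.81 and -0.53 in that order of drug groups, with adjusted p of 0.347, 1.00, 0.859 and 0.787 by limma. For cyp7a1, the rate-limiting enzyme of bile acid synthesis, the means were 41.7 ± 11.5, 49.7 ± 16.3, 31.8 ± 11.6 and 41.5 ± 11.9 FPKM in the same drug groups and 58.0 ± 4.30 FPKM in ERM (SD, n = 4 each). The log2 change at ifosfamide 100 µg/L was -0.92 (adjusted p = 0.920 by limma). The bile acid receptor gene nr1h4 had changes of -0.34 at ifosfamide 100 µg/L and -0.43 at ifosfamide 1 µg/L. The sterol exporter gene abcg5 was at 0.47 at citalopram 10 µg/L and nr0b2a, a bile acid-responsive repressor in mammals, at 0.78 at citalopram 1000 µg/L, with adjusted p of 1.00 and 0.664 by limma. Since none passed the threshold, these are values and not calls. The liver marker sums were 912 to 2628 FPKM at citalopram 1000 µg/L and 993 to 1802 FPKM at ifosfamide 100 µg/L, against 1390 to 1615 FPKM in ERM, and the part of liver RNA in these values was not tested.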

How the data were processed

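GRCz11, HISAT2, featureCounts, fastp and DESeq2 are named, without roles, in the submitters' processing notes. The authors deposited FPKM per gene model and library, with positions and lengths. Dividing each value by the step that 1 read makes gave reads within 0.01 of whole for 100% of values, and their sums gave the depth of 10699832 to 17311011. The deposited FPKM do not follow these sums alone. For npc2, library C of citalopram 1000 µg/L had 1608 of 13654523 reads and 139.8 FPKM, while library A had 1520 of 17311011 reads and 68.1 FPKM. Scaling to total reads is therefore a different scale, and how the deposited scale was made was not determined here. Strand use in counting is not given in the sources used here. The models of 8 members overlap another model, 3 of them (fdps, lss and ldlra) on the same strand, and reads there are uncertain.

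Groups were compared with limma 3.58.1 (R 4.3.3) on log2(FPKM + 1), all 20 libraries in 1 fit with an intensity trend and 15 residual degrees of freedom, for models with a mean of at least 1 FPKM. Tests were two-sided and p adjusted by Benjamini-Hochberg over 19723 models. Libraries were taken as separate beakers. Within groups the lowest chi-square per degree of freedom between libraries was 6.69, so none was another library sequenced again. This value is set against counting error only, so it cannot tell whether libraries came from separate beakers. Figures used matplotlib 3.10.9. Fits were checked on simulated data.

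The members and gene lists were chosen with earlier results of these data known. By rule, levels per library were given for 12 members and those with an unadjusted p under 0.05; other members shown in detail, such as ldlrb, were chosen after their values were seen. Alternatives covered pseudocount, filter, replicate block, samples, scaling, voom on recovered reads, library weights and left-out libraries. Floors on reads cover counting error only, while the intervals from limma rest on the spread between libraries, shared by all groups. The letters that number libraries were not said to pair beakers.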

Additional observations from a re-analysis of the deposited data

Results flagged for a closer look

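Among 130 groups of 4 libraries (26 tested members in 5 groups), 10 held a library far from the other 3 by Dixon's criterion, which chance alone meets in about 1 of 20 groups. The 130 groups share libraries, so they are not independent, and the share over all gene models is not given here. Library C of citalopram 1000 µg/L lay outside the range of its group's other 3 libraries for 77.9% of all tested gene models. Library C of citalopram 1000 µg/L accounted for 3 of them: idi1 at 20.3 FPKM beside 6.65 to 8.54, cyp51 at 10.1 beside 2.89 to 3.59, and npc2 at 139.8 beside 53.5 to 68.1. For hmgcrb, library D of citalopram 1000 µg/L had 7.52 FPKM beside 10.8 to 11.4 and library A of citalopram 10 µg/L had 7.59 beside 9.57 to 9.90. Library B of ifosfamide 100 µg/L had 15.9 FPKM of ldlra beside 18.3 to 18.8, and library A of ifosfamide 1 µg/L had 71.7 FPKM of npc2 beside 54.1 to 56.3. For sc5d, library C of ifosfamide 1 µg/L had 2.20 FPKM beside 1.49 to 1.61 and library C of ERM had 1.99 beside 1.097 to 1.2. Library C of ERM also had 11.3 FPKM of idi1 beside 9.24 to 9.33.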

How the results depend on the processing

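Members called stayed at 0 in all 6 comparisons and the F-test under other pseudocounts, other filters, scaling to total reads, voom, the replicate block and each left-out library, and in the 6 comparisons also with the 2 groups alone. Library weights changed this. The default weights, whose estimation stopped before convergence with library A of citalopram 1000 µg/L at 15.7, called 6 members at citalopram 1000 µg/L (msmo1, hsd17b7, ldlra, ldlrb, stard4 and soat2), 1 at ifosfamide 1 µg/L (stard4), 1 between the citalopram doses (ldlra, where 5.12% of all gene models were called) and 11 in the F-test (46.4% of all gene models). Weights estimated gene by gene, chosen after seeing the data, called stard4 alone, 1 member each at ifosfamide 100 µg/L, ifosfamide 1 µg/L and in the F-test (10.9% of all gene models). The cause was not tested. Over 18 alternatives the log2 change of stard4 at ifosfamide 1 µg/L ran from -0.72 to -0.38, with adjusted p of 0.0110 to 0.999.

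The members' median log2 change at citalopram 1000 µg/L was 0.093 with default weights and -0.089 when scaled to total reads. That scaling gave 0.20 at ifosfamide 1 µg/L and 0.096 at ifosfamide 100 µg/L, and moved the median of all gene models by a similar amount, to -0.05, 0.13 and 0.0996 for citalopram 1000 µg/L, ifosfamide 1 µg/L and ifosfamide 100 µg/L against ERM. With 1 library left out, the median ran from 0.027 to 0.098 at ifosfamide 1 µg/L. Between the ifosfamide doses it ran from -0.089 to -0.016, -0.016 being the value without library C of ifosfamide 100 µg/L. At citalopram 1000 µg/L srebf1 turned to 0.015 with default weights, 0.16 with gene-by-gene weights and 0.32 without library C, and ran from -0.73 to 0.32 over left-out libraries. There srebf2 turned to 0.40, 0.43 and 0.41, and to 0.0037 without library A of ERM, and ran from -0.41 to 0.41.

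Same-letter deviations correlated at -0.435 to 0.424, and for 6 of 20 libraries the best correlate in another group had the same letter. No correlations between different letters are given beside these, so they cannot decide whether letters pair libraries. Letter E occurs in ERM alone, so a block by letter takes library E of ERM out of the comparisons. With the letter as a replicate block stard4 at ifosfamide 1 µg/L was at -0.42 (adjusted p = 0.999 by limma), and of all gene models 0 were called at citalopram 1000 µg/L and 0 at citalopram 10 µg/L, against 6 and 2 without the block. By voom these counts were 5 and 0. With 4 libraries per group and low reads in hmgcra, sqlea, lss and insig1, small changes in these could not be resolved.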
